A study of Mus musculus with 12 samples.

Results

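Interferon-stimulated genes are the genes a cell switches on when it senses interferon, the alarm cytokine of antiviral defence. The set described here was chosen by name, from 49 gene symbols, and not by a threshold on expression. It was chosen with earlier results of these data known. Those symbols matched 48 rows of the 57180 genes in the expression matrix, because Ddx58 is an older symbol of Rigi and both names point to the same row. Major histocompatibility class I genes were left out by design. Of the 48 members, 7 encode regulators (transcription factors and RNA sensors) and 41 encode effectors that act on virus, RNA or protein.

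RNA was sequenced from HC11, an established mouse mammary epithelial cell line. Cells with a knockdown of Snail1, the transcriptional repressor encoded by Snai1, and control cells labelled WT were sorted by flow cytometry, kept overnight to aggregate in medium with EGF and insulin, and put into an in vitro migration assay. The 12 libraries form 4 groups of 3, namely knockdown at 36 h, control at 36 h, knockdown at 0 h and control at 0 h, and all of them share the sorting, medium and aggregation. The series asks what Snail1 does in collective migration, and the labels name no interferon, virus or immune stimulus in any group. The control titles carry scr and the authors' knockdown means carry sh, abbreviations that the labels do not spell out. Whether a line is 1 clone and whether the 3 libraries of a group are separate cultures is not given in the labels, and the p-values thus describe library-to-library spread, which may be technical. The title of control 36 h library 4 starts with a word that marks it as a mix, which no label explains. The authors' own control 36 h mean equals the mean of libraries 1 and 3 for all 57180 genes, within 0.011 TPM, so it leaves library 4 out, while here library 4 was kept as its labels place it.

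Type I interferons bind the IFNAR1 and IFNAR2 receptor chains, and the kinases JAK1 and TYK2 then phosphorylate STAT2. STAT2 and IRF9 are parts of ISGF3, the complex that binds the interferon-stimulated response element (ISRE) in promoters. Cytosolic RNA sensors such as RIG-I and MDA5 start interferon production through MAVS and IRF3 or IRF7, and several of these sensors and factors are themselves induced, so the pathway can amplify itself. Mammary epithelial cells, like most epithelia, carry the receptors and many of the effectors at a basal level.

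Expression is given in TPM, a measure scaled for gene length and library size, as deposited. Changes are log2 fold changes of TPM + 1 with their standard error (SE), which understate the change of genes with low levels. A gene was tested when it reached 1 TPM in at least 3 of the 12 libraries (14426 genes) and called at a Benjamini-Hochberg adjusted p under 0.05 in limma, over all genes tested. Of the 48 members 47 were tested, and Oas2 was below the filter. Mx1, Cmpk2, Rsad2 and Ifitm1 reached 1 TPM in fewer than 3 control libraries, so they passed the filter through the knockdown libraries. Beside the calls, members are counted whose 3 knockdown libraries all lay above, or all below, the 3 control libraries, and each count stands beside the share of all genes that do the same.

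Snai1, the targeted gene, fell at 36 h and at 0 h. Its libraries had 0.58, 0.44 and 0.20 TPM in knockdown at 36 h, against 2.77, 2.69 and 3.92 TPM in control at 36 h (log2 fold change -1.55, SE 0.227, adjusted p = 0.0105 in limma). They had 0.58, 0.79 and 0.48 TPM in knockdown at 0 h, against 1.34, 2.51 and 1.69 TPM in control at 0 h (-0.80, SE 0.227, adjusted p = 0.0348, and -0.51, adjusted p = 0.191, after median-of-ratios scaling). The exact two-sided permutation p was 0.1 at each time, the smallest that 3 against 3 libraries allow.

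Some libraries stood apart. Mitochondrial transcripts made up 14% of knockdown 0 h library 2 and 1.45% to 6.15% of each of the others. In knockdown 0 h library 3, 27715 genes lay above 0 TPM, against 20932 to 23427 in the others. All genes tested had a median change of -0.09 at 36 h and -0.41 at 0 h, and of 0.01 and 0.02 after median-of-ratios scaling, so changes at 0 h are read against that shift. Without knockdown 0 h library 2 the median at 0 h was -0.17. The median-of-ratios factor of that library was 0.507, against 0.902 to 1.22 in the other libraries. Keratin and other epithelial markers summed to 3330 to 25500 TPM in every library, as the cell type label says. All 7 T, B and NK lymphocyte markers stayed below 2 TPM in all libraries, and so did 6 of 9 macrophage and dendritic markers (Adgre1, Aif1, Csf1r, Itgam, Flt3 and Siglech), 3 of 6 fibroblast markers and 3 of 4 endothelial markers. The macrophage and dendritic list summed to 14.2 to 18.6 TPM in the knockdown, against 19.7 to 23.4 TPM in control at 36 h, and to 10.7 to 28.9 TPM in the knockdown, against 42.3 to 55.9 TPM in control at 0 h. The remaining members of that list, Cd68, Cd14 and Lyz2, carried most of it. Cd14 fell at 0 h (-1.76, SE 0.383, adjusted p = 0.0131), while Lyz2 had 2.13, 1.48 and 1.77 TPM in the knockdown, against 0.86, 0.56 and 0.75 TPM in control at 36 h, without a call (0.69, SE 0.398). The part of this list in the results was not tested. In bulk RNA, fewer cells with a transcript and less of it per cell cannot be told apart.

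The promoters of the members show the element that the pathway reads. RefSeq promoter windows on GRCm38.p6, from 250 bases before to 50 after the start, were matched by symbol for 38 of the 48 members. The ISRE core, GAAA followed after any 2 bases by another GAAA, on either strand, stood in 19 of these 38 windows (50%), against 3.99% of the 27025 genes in the same table. The gamma-activated site, TTCNNNGAA, stood in 9 members (23.7%) against 9.55% of genes, and CAGGTG, an E-box that Snail proteins bind, in 9 members (23.7%) against 22.6% of genes. The expression files use GRCm39, so no coordinate is carried between them, and a match of letters is a description, not a binding site. The windows of 4 members on which the results turn are shown as their 250 bases upstream of the start, 5′ to 3′ on the gene's strand, with ISRE cores in capitals.
Isg15, chr4:156200819-156201068 (minus strand): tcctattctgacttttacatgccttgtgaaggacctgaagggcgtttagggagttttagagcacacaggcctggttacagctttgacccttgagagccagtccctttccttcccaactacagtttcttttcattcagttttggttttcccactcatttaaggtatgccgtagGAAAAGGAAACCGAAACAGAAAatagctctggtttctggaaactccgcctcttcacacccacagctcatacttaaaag
Bst2, chr8:71537473-71537722 (minus strand): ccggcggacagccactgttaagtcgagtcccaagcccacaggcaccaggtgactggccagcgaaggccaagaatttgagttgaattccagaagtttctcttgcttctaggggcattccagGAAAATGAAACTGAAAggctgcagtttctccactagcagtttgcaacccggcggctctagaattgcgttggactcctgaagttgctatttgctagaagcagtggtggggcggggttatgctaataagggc
Stat2, chr10:128270248-128270497 (plus strand): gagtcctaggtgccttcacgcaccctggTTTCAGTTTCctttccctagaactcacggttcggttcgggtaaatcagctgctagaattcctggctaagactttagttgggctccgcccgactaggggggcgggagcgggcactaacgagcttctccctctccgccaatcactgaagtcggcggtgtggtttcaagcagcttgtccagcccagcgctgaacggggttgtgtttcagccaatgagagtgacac
Sp100, chr1:85649738-85649987 (plus strand): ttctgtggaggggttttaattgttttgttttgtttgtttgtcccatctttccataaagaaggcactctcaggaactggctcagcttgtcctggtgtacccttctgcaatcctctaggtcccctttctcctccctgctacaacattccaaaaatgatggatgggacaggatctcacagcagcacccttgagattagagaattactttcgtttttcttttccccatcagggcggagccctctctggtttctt
Isg15 holds 3 ISRE cores, each sharing bases with the next, and Bst2 holds 2 that share bases, the first of which also overlaps a gamma-activated site. Stat2 holds 1, and Sp100 holds none in this window and it was called at both times. A pair of IFIT and a pair of OAS paralogs are shown as the 100 bases around their cores, because their reads are hard to tell apart and their promoters are nearly the same.
Ifit3, chr19:34583343-34583442 (plus strand): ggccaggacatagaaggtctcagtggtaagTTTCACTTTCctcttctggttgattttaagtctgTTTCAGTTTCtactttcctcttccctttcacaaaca
Ifit3b, chr19:34607739-34607838 (plus strand): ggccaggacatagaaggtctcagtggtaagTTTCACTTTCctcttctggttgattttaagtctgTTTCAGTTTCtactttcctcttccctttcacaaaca
Oas1a, chr5:120907528-120907627 (minus strand): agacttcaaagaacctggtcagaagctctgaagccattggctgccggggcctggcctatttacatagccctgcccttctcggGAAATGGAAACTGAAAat
Oas1g, chr5:120887614-120887713 (minus strand): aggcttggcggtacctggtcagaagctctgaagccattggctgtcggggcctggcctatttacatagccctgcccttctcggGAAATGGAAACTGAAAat
Ifit3 and Ifit3b were identical at 100 of 100 bases, and Oas1a and Oas1g at 93 of 100. In the transcripts the same pairs share long stretches. Of all windows of 50 bases, 57.6% of those of Oas1a, 54.7% of Oas1g, 51.2% of Ifit3, 48.5% of Ifitm2 and 45.0% of Ifit3b also occur in another gene, so the split of reads within these genes is uncertain.

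The set spans a wide range of basal levels in these epithelial cells. Averaged over the 12 libraries, 5 members stood at 100 TPM or more. These were Ifitm2 (1010 TPM) and Ifitm3 (859 TPM), membrane proteins that block viral entry, Ifi27 (218 TPM), Bst2 (122 TPM) and Ifi35 (119 TPM). A further 19 lay between 10 and 100 TPM, 22 between 1 and 10 TPM, and 2 below 1 TPM (Ifitm1 and Oas2). The members therefore include genes that are abundant without any named stimulus and genes that are close to the detection limit in control cells.

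**Figure D1:**
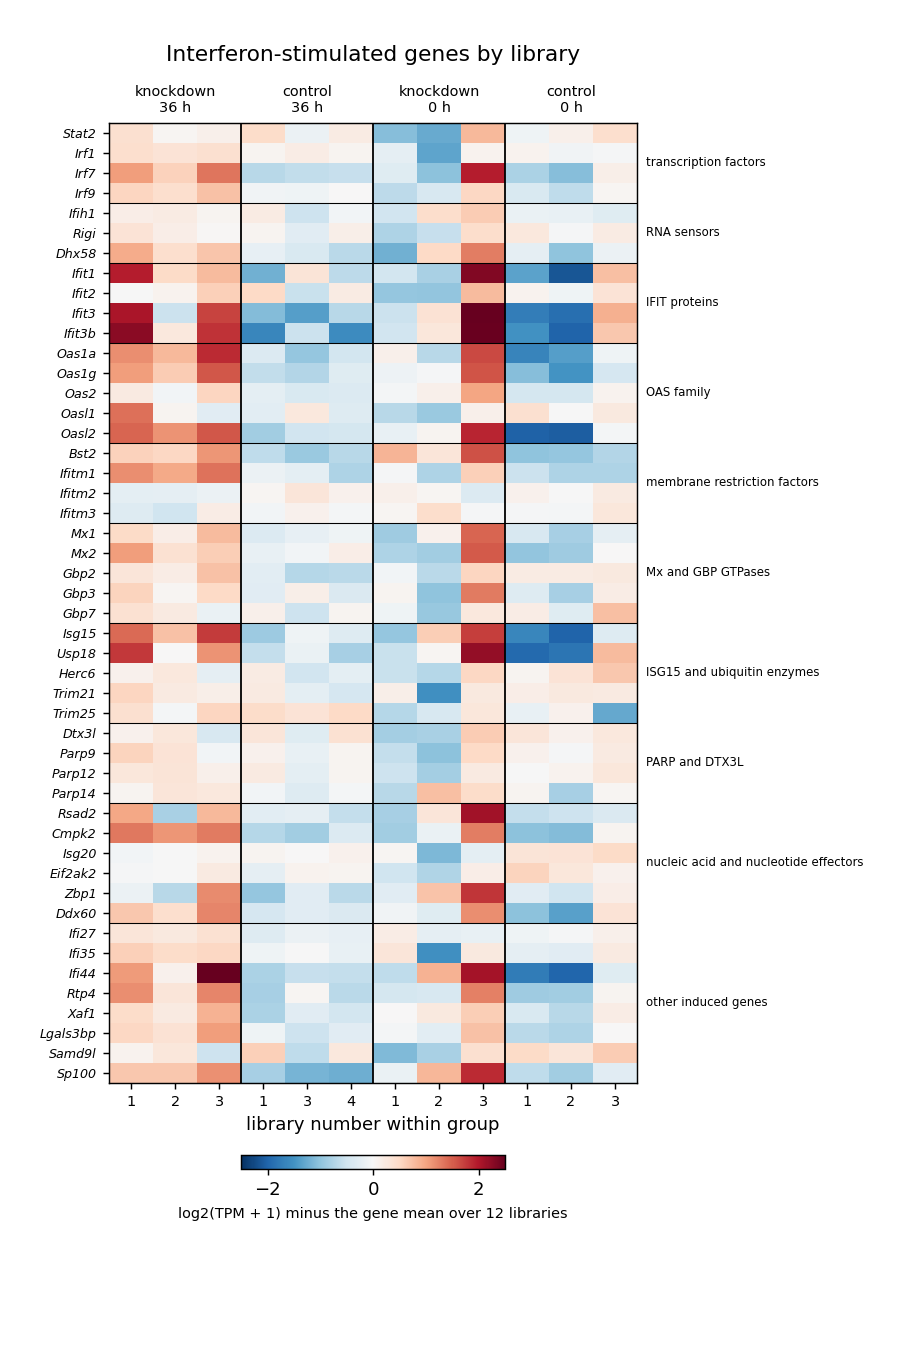
Each cell is the log2(TPM + 1) of a member in a library minus that gene's mean over the 12 libraries, with rows grouped by family and columns by group. Values past the ends of the colour scale take the end colour. In most rows the knockdown columns at 36 h are redder than the control columns at 36 h, while in knockdown at 0 h the red lies mainly in library 3, which was the highest of its group in 41 of 47 members.

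At 36 h the set was higher in the knockdown across most of its members, by a margin that few of them passed one by one. The 3 knockdown libraries all lay above the 3 control libraries in 27 of 47 members, against 14.8% of all genes, and all below in 1 member (Ifitm2), against 22.0% of all genes. The median change of the members was 0.68, against -0.09 over all genes, and 41 members were above 0 and 6 below, where 41.4% of all genes were above 0. By limma, 3 members rose (Bst2, Sp100 and Ifitm1), against 0.894% of all genes, and none fell, against 1.64%. At an unadjusted p under 0.05 there were 18 members, against 2345 of all 14426 genes. Because the members were chosen with earlier results of these data known, the shares of all genes describe the set and do not test it.

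The number of calls at 36 h changed with which 0 h libraries were in the fit. In a fit of the 6 libraries at 36 h alone, 20 of 46 members tested rose and 1 fell (Ifitm2), against 6.51% and 11.1% of all genes in that fit. The filter of that fit used these 6 libraries alone. Sp100, Cmpk2 and Ifitm1, counted among the 20, reached 1 TPM in fewer than 3 of its control libraries. They thus passed that filter through the knockdown libraries. With all 4 groups but without knockdown 0 h library 2 there were 12 members called higher (7.01% of all genes), without library 3 there were 9 (1.3%), and without both there were 19 (7.7%). The count was 1 without control 0 h library 3 (0.522% of all genes) and 4 without knockdown 0 h library 1 (0.844%). It was 0 without any of the other 8 libraries, the 6 libraries at 36 h included (0.105% to 0.398%). Without control 36 h library 4, the one marked as a mix, 27 members lay above without overlap, against 16.7% of all genes, a count that cannot fall when a library is left out. Over all 48 members, with no filter, 28 had no overlap and lay higher and 1 lay lower, against 7.63% and 10.4% of the 35924 genes above 0 TPM.

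None of the regulators was called at 36 h in the fit of all groups. The factors Irf7, Irf9 and Irf1 and the sensor Dhx58 lay above control without overlap, while Stat2, Rigi and Ifih1 overlapped. Irf7, the interferon regulatory factor that drives most type I interferon genes, had 18.0, 12.8 and 22.4 TPM in knockdown at 36 h, against 4.73, 5.06 and 5.25 TPM in control. All 3 knockdown libraries lay more than 2 times above the highest control library, and the change was 1.61 (SE 0.615, adjusted p = 0.214 in limma with all groups, 0.00459 with the 36 h libraries alone). Irf9, the DNA-binding part of ISGF3, had 21.7, 19.9 and 24.9 TPM in the knockdown, against 13.8, 13.4 and 14.8 TPM in control at 36 h. These groups did not overlap, at a change of 0.62 (SE 0.295, adjusted p = 0.333, and 0.0251 with the 36 h libraries alone).

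Irf1, a factor induced by both interferon types, had 52.8, 50.3 and 52.2 TPM in the knockdown, against 41.2, 45.2 and 41.6 TPM in control at 36 h. Its libraries were separate but close, at a change of 0.27 (SE 0.300, adjusted p = 0.759). Stat2, a signal transducer and part of ISGF3, had 11.8, 8.97 and 9.58 TPM in the knockdown, against 12.4, 7.70 and 10.1 TPM in control at 36 h, and the groups overlapped (0.02, SE 0.450, adjusted p = 0.992).

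Of the sensors, Dhx58 (LGP2, which modulates MDA5) had 6.78, 4.52 and 5.67 TPM in the knockdown, against 2.56, 2.16 and 1.59 TPM in control at 36 h. Every knockdown library was above every control library, at a change of 1.10 (SE 0.508, adjusted p = 0.315, and 0.0142 with the 36 h libraries alone). Rigi, which encodes RIG-I, had 63.9, 56.3 and 51.0 TPM in the knockdown, against 53.0, 41.2 and 55.8 TPM in control at 36 h. Ifih1, which encodes MDA5, had 4.49, 4.59 and 4.08 TPM in the knockdown, against 4.60, 2.38 and 3.67 TPM in control at 36 h. Both overlapped, at changes of 0.19 (SE 0.290) for Rigi and 0.27 (SE 0.292) for Ifih1.

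At 0 h the regulators showed no separation between the groups, and knockdown library 3 was the highest library of both groups in all 7. Irf7 had 6.55, 3.55 and 35.2 TPM in the knockdown, against 4.34, 3.43 and 9.32 TPM in control at 0 h (0.78, SE 0.615). Irf9 had 8.90, 10.9 and 21.3 TPM in the knockdown, against 11.1, 9.11 and 15.2 TPM in control (0.14, SE 0.295). Dhx58 had 0.78, 4.83 and 8.98 TPM in the knockdown, against 2.53, 1.04 and 2.70 TPM in control (0.65, SE 0.508). Knockdown libraries 1 and 2 lay within or just below the control range in Irf7 and Irf9, and on either side of it in Dhx58.

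Stat2 had 3.59, 3.04 and 15.9 TPM in the knockdown, against 7.91, 9.54 and 11.9 TPM in control at 0 h (-0.65, SE 0.450). Irf1 had 33.5, 15.2 and 42.1 TPM in the knockdown, against 41.9, 36.9 and 38.8 TPM in control (-0.47, SE 0.300). Rigi had 29.2, 33.6 and 68.4 TPM in the knockdown, against 60.6, 49.1 and 57.9 TPM in control (-0.44, SE 0.290), so knockdown libraries 1 and 2 lay below control and library 3 above it in Stat2, Irf1 and Rigi alike. Under median-of-ratios scaling or quantile normalization the sign of Irf1 and of Rigi at 0 h turned, and that of Stat2 did not. Ifih1 had 2.47, 5.59 and 6.51 TPM in the knockdown, against 3.36, 3.30 and 2.95 TPM in control at 0 h (0.40, SE 0.292), with knockdown library 1 below control and the other two above.

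Set side by side, regulators and effectors differed in size more than in direction at 36 h. The 7 regulators had a median change of 0.27 with 7 above 0, and the 40 tested effectors a median of 0.70 with 34 above 0 and 6 below. No overlap with the knockdown higher was seen in 4 of 7 regulators and in 23 of 40 effectors, against 14.8% of all genes. In the fit of the 36 h libraries alone 3 of 7 regulators (Irf7, Dhx58 and Irf9) and 17 of 39 effectors rose, against 6.51% of all genes. The 17 include Sp100, Cmpk2 and Ifitm1, which passed the filter of that fit through the knockdown libraries. At 0 h the medians were 0.14 for regulators and 0.58 for effectors, against -0.41 over all genes. That of the regulators ran from -0.34 without knockdown 0 h libraries 2 and 3 to 0.68 after quantile normalization, so its sign changes with the setting. In these settings the median of all members was -0.08 and 0.68, and that of all genes -0.27 and -0.04. Members are not replicates, so no test between these classes was made.

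**Figure D2:**
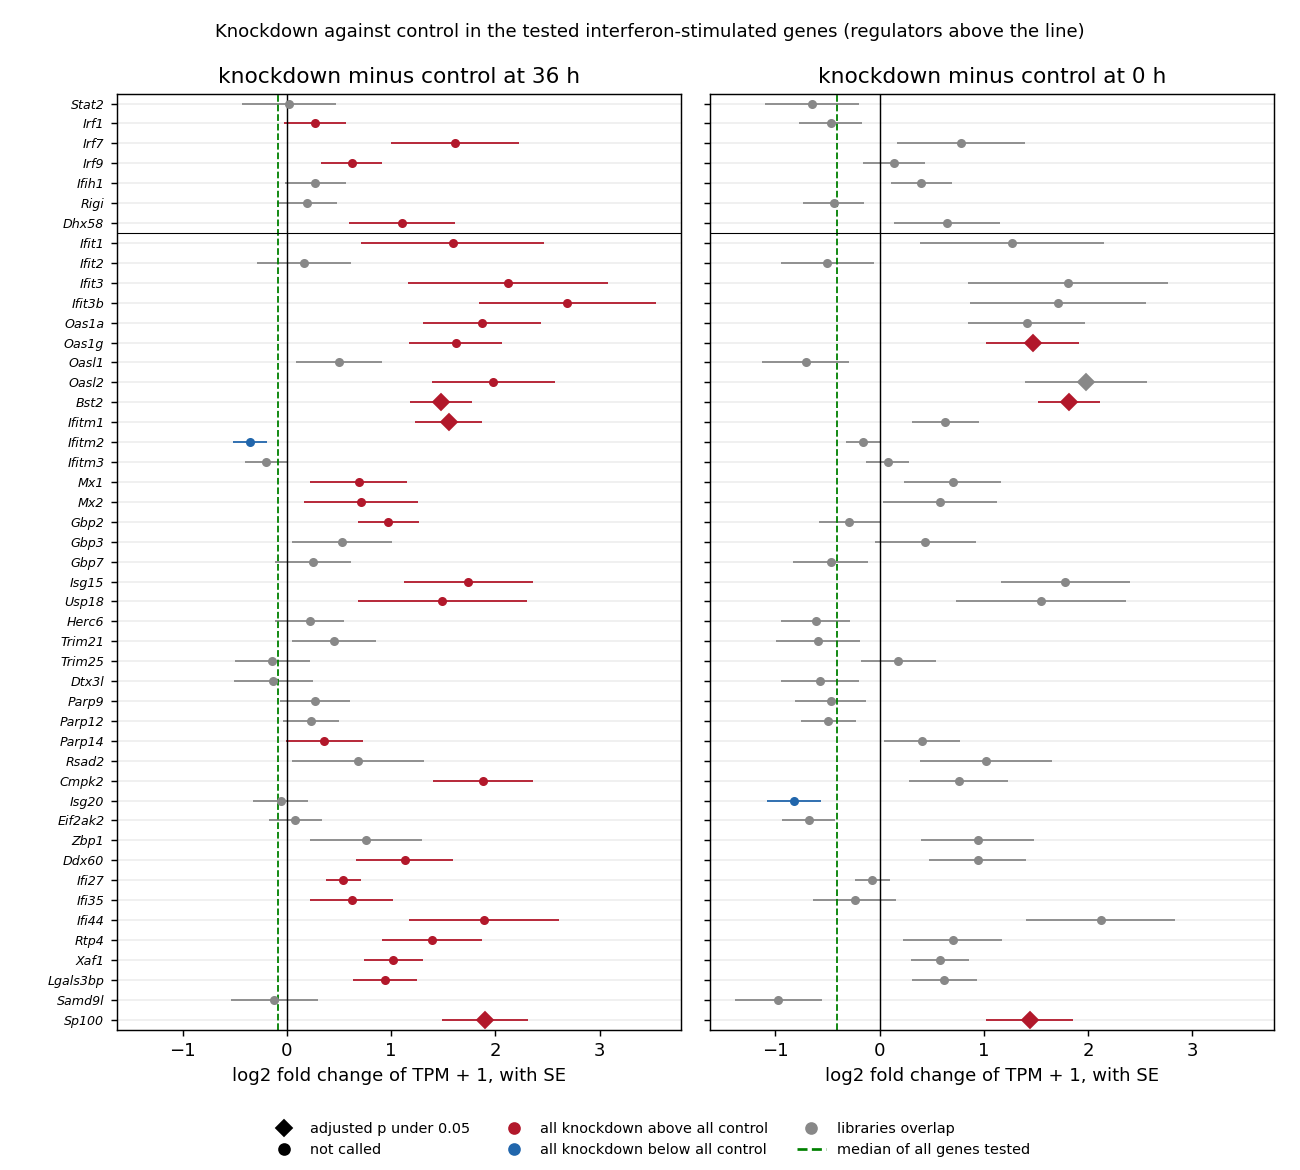
Points are log2 fold changes of TPM + 1 with their SE for the 47 tested members, knockdown over control, in a panel each for 36 h and 0 h, with regulators above the horizontal line and the green dashed line at the median of all genes tested. Diamonds mark calls, and colour marks members whose libraries do not overlap. At 36 h 27 members are red and lie right of 0, while at 0 h 3 are red and the points spread from -0.97 to 2.12.

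Bst2, which encodes tetherin, a membrane protein that holds budding virions on the cell, rose at both times. It had 150.2, 144.6 and 216.3 TPM in the knockdown, against 64.6, 52.3 and 61.7 TPM in control at 36 h. At 0 h it had 182.0, 123.3 and 306.0 TPM in the knockdown, against 49.4, 50.6 and 59.9 TPM in control. Every knockdown library stood above every control library at both times. In limma the knockdown differed by 1.48 (SE 0.299, adjusted p = 0.0298) at 36 h and by 1.82 (SE 0.299, adjusted p = 0.00411) at 0 h. The call at 0 h was lost in 1 of 22 alternative fits, that of the 0 h libraries alone (adjusted p = 0.0669), and the call at 36 h in 10 of 22.

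Sp100, a component of nuclear PML bodies, also rose at both times, from a low level. It had 4.83, 4.81 and 7.03 TPM in the knockdown, against 1.04, 0.63 and 0.56 TPM in control at 36 h (1.9, SE 0.415, adjusted p = 0.0402). Its 0 h libraries had 2.25, 5.44 and 12.3 TPM in the knockdown, against 1.34, 1.01 and 1.99 TPM in control, at 1.44 (SE 0.415, adjusted p = 0.0369). The groups were separate at both times, by a wide gap at 36 h and by a narrow one at 0 h. These calls were lost in 13 and 14 of 22 alternative fits.

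Ifitm1, the least abundant of the IFITM entry inhibitors here, rose at 36 h, and it entered the test through its knockdown libraries, since no control library reached 1 TPM. It had 2.80, 2.27 and 3.38 TPM in the knockdown, against 0.53, 0.43 and 0 TPM in control at 36 h, and 0.66, 0 and 1.59 TPM in the knockdown, against 0.17, 0 and 0 TPM in control at 0 h. The groups were separate at 36 h only, with changes of 1.55 (SE 0.323, adjusted p = 0.0336) at 36 h and 0.63 (SE 0.323, adjusted p = 0.175) at 0 h, and the difference between the 2 was not called (0.92, SE 0.456, adjusted p = 0.595). The call at 36 h was lost in 13 of 21 alternative fits. Ifitm2 went the other way at 36 h without a call, with 842, 851 and 904 TPM in the knockdown, against 1033, 1223 and 1073 TPM in control (-0.35, SE 0.163, adjusted p = 0.313, and 0.0347 with the 36 h libraries alone). Under median-of-ratios scaling its groups overlapped. Ifitm3 had 747 ± 192 TPM in the knockdown, against 844 ± 59.4 TPM in control at 36 h (SD, n = 3 each; -0.20, SE 0.206), with overlapping libraries.

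The OAS family makes 2-5A, the messenger that activates RNase L, or carries related domains. Oasl2 rose at 0 h, where it had 5.77, 7.08 and 27.9 TPM in the knockdown, against 0.89, 0.85 and 6.43 TPM in control (1.98, SE 0.589, adjusted p = 0.0414). Control library 3 lay between the knockdown libraries, so the groups overlapped. This call was lost in 12 of 22 alternative fits, without knockdown 0 h library 3 among them. At 36 h Oasl2 had 20.0, 15.8 and 21.5 TPM in the knockdown, against 3.19, 4.48 and 4.67 TPM in control, a gap without overlap and without a call in the fit of all groups (1.98, SE 0.589, adjusted p = 0.110). With the 36 h libraries alone it had the lowest adjusted p of the set (0.00191).

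Oas1g rose at 0 h, with 3.77, 4.12 and 14.6 TPM in the knockdown, against 1.5, 0.86 and 2.88 TPM in control (1.47, SE 0.445, adjusted p = 0.0438). At 36 h it had 9.72, 7.09 and 14.3 TPM in the knockdown, against 2.43, 2.13 and 3.24 TPM in control (1.62, SE 0.445, adjusted p = 0.0851), and its groups were separate at both times. The call at 0 h was lost in 13 of 22 alternative fits, without knockdown 0 h library 3 among them. Its paralog Oas1a averaged 22.3 ± 8.92 TPM in the knockdown, against 5.20 ± 1.34 TPM in control at 36 h (SD, n = 3 each; 1.87, SE 0.562), also without overlap. Since over 50% of the transcript windows of each occur in the other, their separate values are less certain than their common direction. Oasl1 overlapped, at 0.50 (SE 0.415) at 36 h and -0.71 (SE 0.415) at 0 h, and Oas2, below the filter, had 0.59, 0.30 and 0.98 TPM in the knockdown, against 0.15, 0.05 and 0.08 TPM in control at 36 h.

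The IFIT proteins bind foreign 5′ ends of RNA and block its translation. At 36 h 3 of 4 lay above control without overlap, against 14.8% of all genes. Ifit3b averaged 19.8 ± 12 TPM in the knockdown, against 1.95 ± 1.37 TPM in control at 36 h, with the largest change of all tested members (2.69, SE 0.847, adjusted p = 0.128; SD, n = 3 each). Ifit3 averaged 12.7 ± 9.04 TPM in the knockdown, against 1.51 ± 0.592 TPM in control (2.12, SE 0.959), and Ifit1 15.3 ± 9.46 TPM in the knockdown, against 4.42 ± 2.98 TPM in control (1.59, SE 0.880). The knockdown libraries ranged widely in these genes, as with 19.9, 2.54 and 15.5 TPM of Ifit3, and none was called. Ifit2 overlapped, at 9.65 ± 2.49 TPM in the knockdown, against 8.77 ± 3.37 TPM in control (0.16, SE 0.450).

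Isg15, a ubiquitin-like modifier, had 59.8, 37.2 and 76.0 TPM in the knockdown, against 11.2, 20.3 and 17.4 TPM in control at 36 h, without overlap (1.74, SE 0.618, adjusted p = 0.178, and 0.00963 with the 36 h libraries alone). At 0 h it had 10.7, 33.9 and 74.4 TPM in the knockdown, against 6.38, 4.70 and 17.2 TPM in control, with overlap (1.78, SE 0.618, adjusted p = 0.0662). Usp18, the protease that removes ISG15 and restrains the receptor, averaged 20.6 ± 11.8 TPM in the knockdown, against 5.95 ± 1.67 TPM in control at 36 h, without overlap (1.49, SE 0.813, adjusted p = 0.417; SD, n = 3 each). The ubiquitin ligases of the set lay nearer to control at 36 h, with Herc6 at 0.22, Trim21 at 0.45 and Trim25 at -0.14, all with overlap. Of the 6 members below 0 at 36 h, 4 (Trim25, Dtx3l, Isg20 and Samd9l) turned in sign under another scaling.

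**Figure D3:**
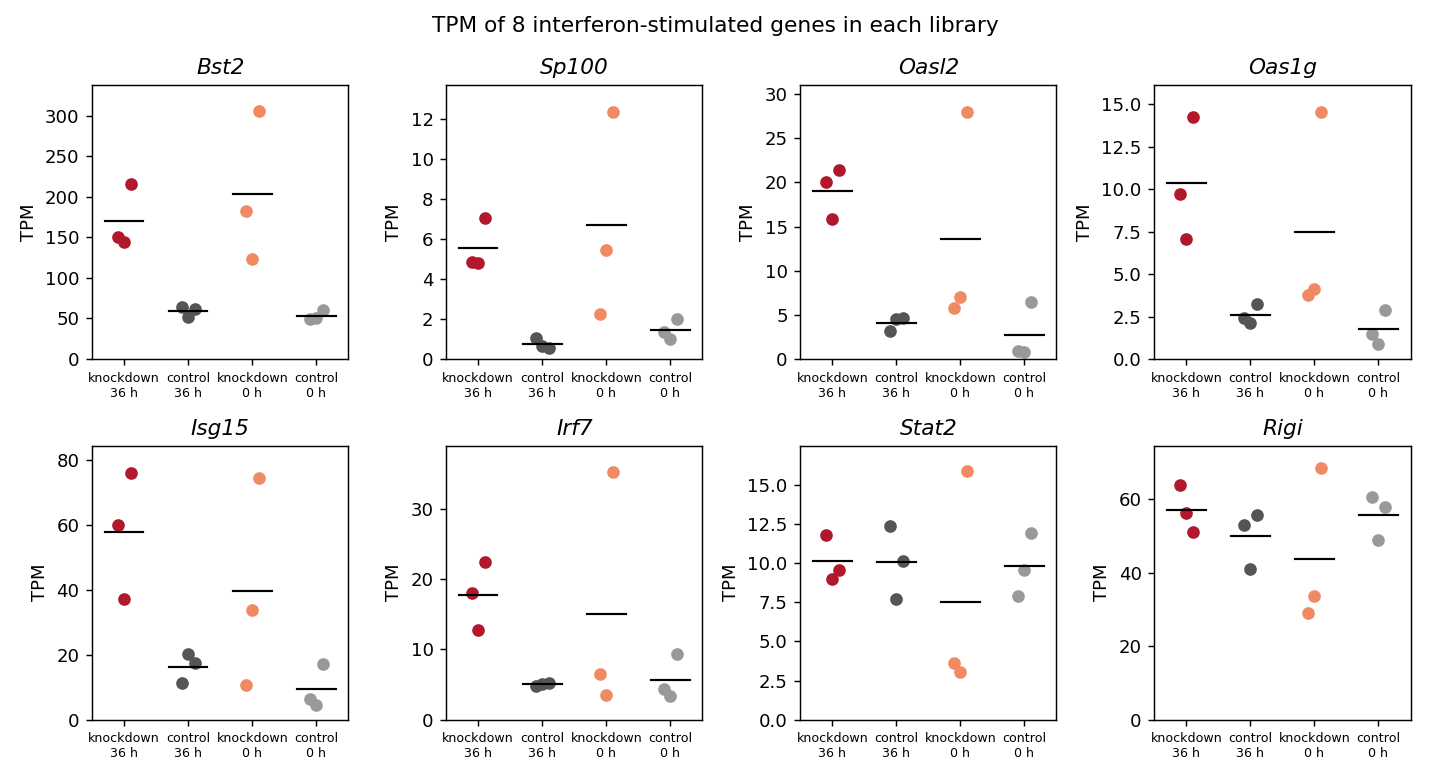
TPM of 8 members in each library, with black bars at the group means of 3 libraries and each panel on its own linear scale from 0. Knockdown at 36 h lies above control at 36 h without overlap in Bst2, Sp100, Oasl2, Oas1g, Isg15 and Irf7, while Stat2 and Rigi overlap. At 0 h the knockdown mean of Irf7 rests on library 3, with 35.2 TPM against 6.55 and 3.55 TPM in the other knockdown libraries.

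Among the GTPases, Gbp2, a guanylate-binding protein that attacks pathogen vacuoles, averaged 17.6 ± 3.82 TPM in the knockdown, against 8.49 ± 1.70 TPM in control at 36 h (SD, n = 3 each; 0.97, SE 0.293, adjusted p = 0.113). Mx1 and Mx2, dynamin-like antiviral GTPases, had changes of 0.69 (SE 0.465) and 0.71 (SE 0.546) from levels near 1 TPM in control. All 3 lay above control without overlap at 36 h (14.8% of all genes did), and Gbp3 (0.53) and Gbp7 (0.25) overlapped.

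Among the effectors that act on RNA or nucleotides, Cmpk2, a mitochondrial nucleotide kinase, had 4.96, 4.13 and 4.82 TPM in the knockdown, against 0.46, 0.30 and 0.88 TPM in control at 36 h (1.88, SE 0.476, adjusted p = 0.0661). The gap is wide against the spread of either group. Ddx60, a helicase that aids RNA sensing, averaged 8.32 ± 2.75 TPM in the knockdown, against 3.15 ± 0.214 TPM in control (1.13, SE 0.466; SD, n = 3 each), also without overlap. Rsad2 (viperin) at 0.68 and Zbp1, a sensor of Z-form nucleic acid, at 0.76 overlapped. Eif2ak2 (PKR) at 0.08 and the exonuclease Isg20 at -0.06 overlapped at 36 h, and at 0 h Isg20 was the single member whose knockdown libraries, with 30.3, 13.0 and 24.7 TPM, all lay below control, with 36.9, 37.4 and 41.1 TPM (-0.82, SE 0.263, adjusted p = 0.0525). That separation was gone after either scaling.

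The PARP and DTX3L genes, which modify proteins by ADP-ribose and ubiquitin, lay close to control at 36 h. Parp14 was without overlap at 0.36 (SE 0.365), and Parp9 (0.27), Parp12 (0.23) and Dtx3l (-0.13) overlapped. Of the remaining 8 effectors 7 lay above control without overlap at 36 h, against 14.8% of all genes. Besides Sp100 these were Ifi44, a gene of unclear biochemical role, at 10.7 ± 9.59 TPM in the knockdown, against 1.51 ± 0.208 TPM in control (1.89, SE 0.718), Rtp4, a chaperone of taste and opioid receptors, at 54.2 ± 17.3 and 20.1 ± 7.22 TPM (1.39, SE 0.476), and Xaf1, a pro-apoptotic factor, at 23.0 ± 5.59 and 10.7 ± 2.05 TPM (1.02, SE 0.282; SD, n = 3 each, knockdown before control). The others were Lgals3bp, a secreted galectin-binding protein, at 0.94 (SE 0.310), Ifi35 at 0.62 (SE 0.399) and Ifi27 at 0.54 (SE 0.170), while Samd9l, at -0.12 (SE 0.414), overlapped.

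At 0 h the set was less uniform. By limma, 4 members rose (Bst2, Oas1g, Oasl2 and Sp100), against 3.10% of all genes, and none fell, against 14.6% of all genes. The knockdown libraries all lay above control in 3 members (Bst2, Oas1g and Sp100), against 7.24% of all genes (4.88% of all genes above 0 TPM), and all below in 1 (Isg20), against 30.7%. The median change was 0.44, against -0.41 over all genes, with 29 members above 0 and 18 below, where 27.9% of all genes were above 0. After median-of-ratios scaling the medians were 0.81 for the members and 0.02 for all genes, and 10 members were called higher, against 8.66% of all genes.

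Single libraries moved the values at 0 h. Knockdown 0 h library 3 was the highest of its group in 41 of 47 members, where it was highest in 53.9% of all genes. Control 0 h library 3 was the highest of its group in 37 of 47 members, against 40.4% of all genes. Without knockdown 0 h library 3 the calls were 2 higher (Bst2 and Sp100) and 11 lower, among them Stat2, Irf1, Rigi, Ifit2 and Eif2ak2. In that fit 5.82% of all genes were called higher and 35.3% lower. Its member median was 0.09, against -0.59 over all genes. Knockdown 0 h library 2 was the lowest of its group in 23 of 47 members, where it was lowest in 66.6% of all genes. Without library 2 the calls were 5 higher and 1 lower (Isg20), against 6.84% and 16.8% of all genes. The member median was then 0.50, against -0.17 over all genes. Without knockdown 0 h libraries 2 and 3, which leaves 1 library in that group, the member median was -0.08, against -0.27 over all genes. Without control 0 h library 3, 18 members lay above control without overlap, against 8.42% of all genes. The members with no overlap at both times were Bst2, Oas1g and Sp100, against 3.51% of all genes.

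At 36 h the libraries were more alike, but they too kept an order. Knockdown 36 h library 2 was the lowest of its group in 32 of 47 members, where it was lowest in 20.1% of all genes. It had 12.8 TPM of Irf7, 37.2 TPM of Isg15 and 2.54 TPM of Ifit3, the lowest of the 3 knockdown libraries in each. Its median over the members, on the log2(TPM + 1) scale, was 3.32, against 4.14 and 4.05 in the other knockdown libraries and 2.74 to 3.09 in control at 36 h.

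Between 36 h and 0 h, no member was called in the knockdown, in control or in the difference between those changes. At an unadjusted p under 0.05 there were 6 members in the knockdown, 2 in control and 2 in the difference, against 2363, 803 and 766 of all 14426 genes. Over all genes, 0.998% were called higher and 0.125% lower in the knockdown, 0.25% and 0.111% in control, and none in the difference. The median change of the members was 0.49 in the knockdown, against 0.33 over all genes, and 0.04 in control, against -0.01. In the knockdown 40 members were above 0, against 74.1% of all genes, in control 25, against 48.9%, and in the difference 34, against 72.0%. In the knockdown the 36 h libraries lay above the 0 h libraries in 4 members (Ifi35, Irf1, Ifitm1 and Ifi27), against 15% of all genes, and below in 0, against 3.91%. In control they lay above in 1 (Trim25), against 9.55%, and below in 4 (Eif2ak2, Gbp2, Isg20 and Ifi27), against 12.3%.

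Ifi27 was the member whose libraries separated over time in both arms and in opposite directions. It had 265.8, 254.3 and 280.4 TPM at 36 h and 246.1, 184.1 and 189.1 TPM at 0 h in the knockdown. In control it had 170.9, 193.4 and 185.9 TPM at 36 h and 199.0, 211.6 and 236.2 TPM at 0 h. The changes were 0.38 (SE 0.170) in the knockdown and -0.23 (SE 0.170) in control, and their difference of 0.61 (SE 0.240) was not called (adjusted p = 0.595). The change in the knockdown was -0.02 after median-of-ratios scaling and 0.25 after quantile normalization. Without knockdown 0 h library 3, 11 members were called higher over time in the knockdown, among them Irf1, Irf7, Irf9, Stat2 and Rigi, against 9.88% of all genes.

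The signal chain around the set was measured from 7 lists of genes that are no members. Of 13 interferon ligand genes, 7 were at 0 in all 12 libraries, the highest value was 1.91 TPM, and none reached the filter. Ifnb1, the interferon most cells make first, had 0.29, 0 and 0.44 TPM in the knockdown, against 0 TPM in all 3 control libraries at 36 h, and 0, 0 and 0.11 TPM in either group at 0 h. At these levels no difference between the groups can be read. The 14th gene on that list, Il6, is a cytokine and no interferon, and it rose at both times, with 5.23 ± 2.16 TPM in the knockdown, against 1.79 ± 0.583 TPM in control at 36 h (1.13, SE 0.259, adjusted p = 0.0468), and 3.46 ± 0.430 TPM in the knockdown, against 1.05 ± 0.192 TPM in control at 0 h (1.12, SE 0.259, adjusted p = 0.0168; SD, n = 3 each).

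None of the 6 receptor genes was called at either time. Ifnar1 averaged 40.6 ± 5.5 TPM in the knockdown, against 40.0 ± 10.1 TPM in control at 36 h, and Ifnar2 42.1 ± 8.62 and 36.0 ± 0.481 TPM (SD, n = 3 each, knockdown before control). Their kinases Jak1 (-0.03, SE 0.299) and Tyk2 (0.08, SE 0.384) were not called at 36 h. None of the 5 kinases and signal transducers and none of 5 tested further interferon regulatory factors was called.

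Of 11 tested sensors, adaptors and kinases upstream of interferon, 4 fell at 0 h (14.6% of all genes did) and 1 at 36 h (1.64% of all genes did). All 11 were below 0 at 0 h, at a median of -0.77, where 27.9% of all genes were above 0 at a median of -0.41. At 36 h 8 were below 0, at a median of -0.38, where 41.4% of all genes were above 0 at a median of -0.09. Ticam1, the adaptor of TLR3, fell at both times, with 0.92, 1.95 and 0.94 TPM in the knockdown, against 5.38, 3.10 and 4.28 TPM in control at 36 h (-1.22, SE 0.255, adjusted p = 0.0339), and with -1.04 (SE 0.255, adjusted p = 0.0210) at 0 h. Tlr3, the endosomal sensor of double-stranded RNA, fell at 0 h (-1.32, SE 0.393, adjusted p = 0.0415). It had 17.5, 21.7 and 13.7 TPM in the knockdown, against 49.9, 23.1 and 50.5 TPM in control at 36 h, without overlap and without a call (-1.12, SE 0.393, adjusted p = 0.174).

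The kinase gene Ikbke (-1.55, SE 0.356, adjusted p = 0.0162) and the cyclic-dinucleotide receptor gene Sting1 (-0.99, SE 0.241, adjusted p = 0.02) fell at 0 h. Irf3, the factor these routes activate, was not called, at 0.23 (SE 0.186) at 36 h and -0.23 (SE 0.186) at 0 h. The shift of all genes at 0 h bears on these values, and after median-of-ratios scaling they were -0.82 for Tlr3, -0.65 for Ticam1, -1.09 for Ikbke and -0.72 for Sting1. Of 5 inhibitors, Socs3, a feedback inhibitor of cytokine receptors, fell at 0 h (-1.35, SE 0.399, adjusted p = 0.0394) and none was called at 36 h. Of 20 tested genes in a list of gamma-interferon GTPases and other induced genes outside the set, the chemokine Ccl5 rose at 0 h (2.31, SE 0.514, adjusted p = 0.0143), while Pml (-0.86, SE 0.205, adjusted p = 0.0187) and Ifi211 (-0.93, SE 0.291, adjusted p = 0.0485) fell. Of all genes, 3.10% were called higher and 14.6% lower at 0 h. After median-of-ratios scaling the 0 h changes were -0.86 for Socs3, 2.78 for Ccl5, -0.39 for Pml and -0.64 for Ifi211. None of the 20 was called at 36 h, where 9 lay above control without overlap (14.8% of all genes did) and 3 below (22.0% did).

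**Figure D4:**
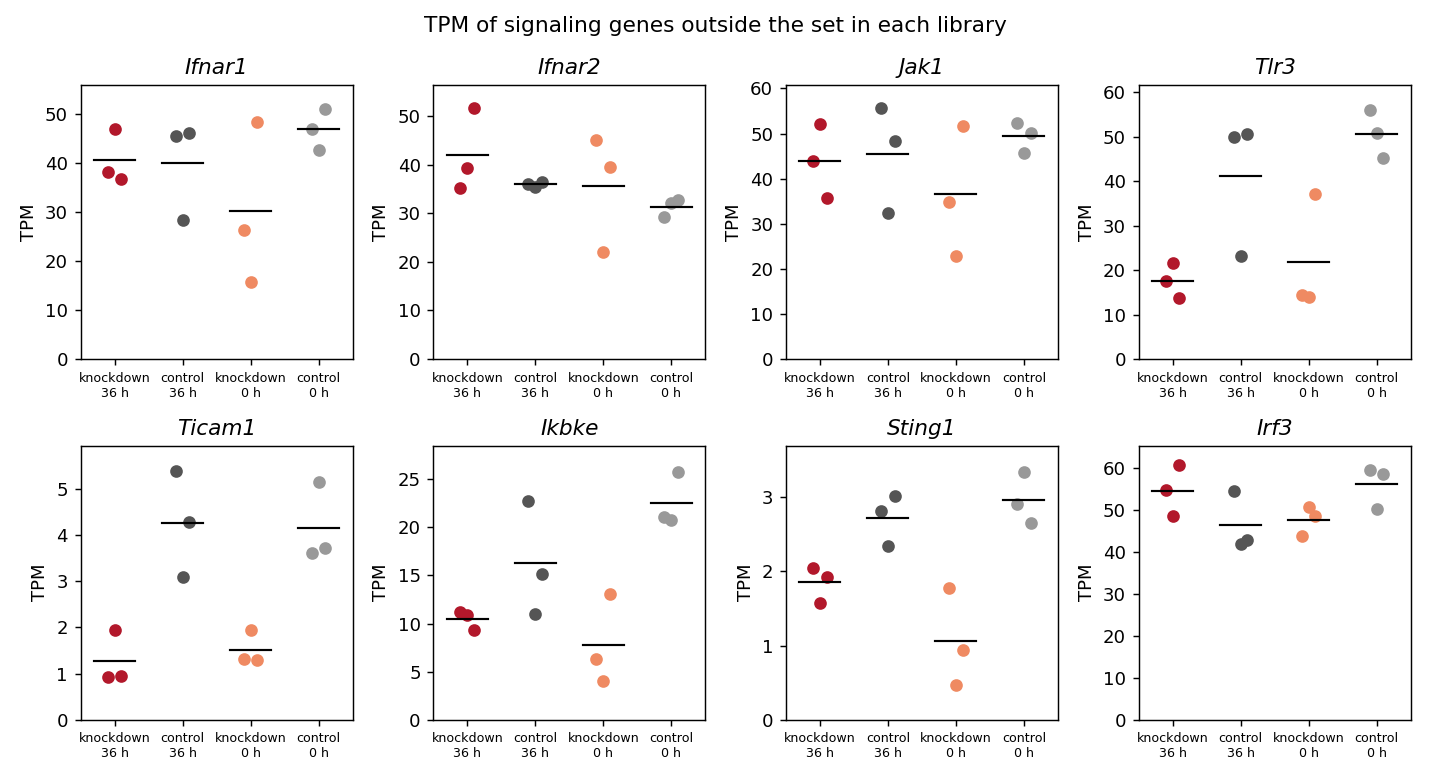
TPM of 8 signaling genes outside the set in each library, with black bars at the group means of 3 libraries and each panel on its own linear scale from 0. Tlr3, Ticam1 and Sting1 lie below control at both times without overlap, while Ifnar1, Ifnar2 and Jak1 overlap.

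Counts at 36 h were close in members with and without an ISRE core in the promoter window. Of the 19 with a core, 9 lay above control without overlap, at a median change of 0.68. Of the 19 with a window and no core 11 did so, at a median of 0.62. Among all genes 14.8% did so, at a median of -0.09. The first group holds Isg15, Bst2, Ifit1, Ifit3, Oas1a and Oas1g, and also Stat2, Rigi and Eif2ak2, which lay at or near control. The second holds Irf7, Irf9, Sp100, Oasl2 and Cmpk2. Of the 10 members that had no window 9 were tested, and 7 of them lay above control without overlap.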

How the data were processed

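Gene expression was measured by RNA sequencing in 12 libraries in 4 groups of 3. The authors deposited TPM values per gene, normalized for length and library size, and the tool that made the TPM is not given in the sources used here. Per the submitters' processing notes, FastQC, cutadapt 1.9.1, HISAT2 2.2.1, HTSeq, DESeq2 and GRCm39 were used, with no roles stated. The library kit was stranded, per the labels' protocols. TPM keeps no read depth, so depth per library is unknown and no counting interval is given.

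From these values log2(TPM + 1) was computed, genes at 1 TPM or more in at least 3 libraries were kept (14426 of 57180), and limma 3.58.1 in R 4.3.3 was fitted to 4 group means with a mean-variance trend and 5 contrasts, with Benjamini-Hochberg adjustment over all genes tested. The fit was tested on simulated data with independent libraries, none of them shifted, and a capped spread per gene. That test thus does not cover libraries that stand apart or members with a wide spread. Exact permutation tests used scipy 1.17.1. Alternatives were another pseudocount (0.1 TPM), no filter or one of 5 TPM, quantile normalization, median-of-ratios scaling, the replicate number as a block, array weights, only the groups compared, and libraries left out. Replicate libraries shared at most 2.02% equal values, so none was counted as a copy.

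The members and the gene lists were chosen with earlier results of these data known. All regulators are named with every library, effectors likewise when called, other effectors when the groups do not overlap, and pathway genes outside the set when called or when central to the pathway. Ifitm3, Oas2 and the effectors given with overlap are named to account for every member. 1 gene that this rule names is not reported here. Of the 31 genes on the list of other induced genes, Mnda was not matched. The authors' mean columns were used only for the check of library 4, and 1 further column of per-library values was not used.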

Additional observations from a re-analysis of the deposited data

Results flagged for a closer look

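Ifi27 was the member whose libraries moved in opposite directions over time in the knockdown and in control. Between 36 h and 0 h its change was 0.38 (SE 0.170) in the knockdown and -0.23 (SE 0.170) in control, with 3 of 3 libraries at 36 h above those at 0 h in the knockdown and 3 of 3 below in control. The difference between these changes was 0.61 (SE 0.240) and was not called in limma (adjusted p = 0.595). The change in the knockdown was -0.02 after median-of-ratios scaling and 0.25 after quantile normalization.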

How the results depend on the processing

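At 36 h the reported 3 members called higher became 0 with no filter, 1 with a filter of 5 TPM, 8 with median-of-ratios scaling, 9 with quantile normalization, 27 with array weights (18.9% of all genes), 20 with only the groups compared, and 19 without knockdown 0 h libraries 2 and 3, and 0 to 12 with 1 library left out. Of all genes, 0.894% were called higher at 36 h as reported, 0.206% with no filter and 0.921% with a filter of 5 TPM. That share was 2.5% with median-of-ratios scaling, 2.88% with quantile normalization and 6.51% with only the groups compared. In these 3 settings calls thus rose over all genes as well. With 1 library left out the share was 0.105% to 7.01%, and the 12 members came without knockdown 0 h library 2 (7.01%). The 0 called lower became 1 with array weights (34.3% of all genes) and 1 with only the groups compared (11.1%), and stayed 0 with any 1 library left out. At 0 h the 4 called higher became 1 with no filter (0.676% of all genes) and 0 with only the groups compared (0.188%, limma). They became 10 with median-of-ratios scaling (8.66%) and 9 with quantile normalization (7.58%). With 1 library left out they were 1 to 8, and the 8 came without knockdown 0 h library 1 (3.93%). The 0 called lower at 0 h became 1 with a filter of 5 TPM (18.6% of all genes) and 4 with array weights (24.9%). With 1 library left out it was 0 to 11, and the 11 came without knockdown 0 h library 3 (35.3%). Over time in the knockdown, 1 was called higher with array weights (3.38% of all genes) and 0 to 11 with 1 library left out. The 11 came without knockdown 0 h library 3 (9.88%). In control, array weights called 8 higher and 7 lower of 47, and 18.0% and 15.9% of all genes.

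The 27 members above control without overlap at 36 h were 27 to 32 with 1 library left out (16.7% to 19.9% of all genes), a change that can only add members. The 1 below was 0 after median-of-ratios scaling (18.7% of all genes) and 1 to 3 with 1 library left out (23.8% to 38.8%). At 0 h the 3 above were 7 after median-of-ratios scaling (17.1% of all genes) and 8 after quantile normalization (14.8%). With 1 library left out they were 3 to 18, and the 18 came without control 0 h library 3 (8.42% of all genes). The 1 below at 0 h was 0 after either scaling, against 18.3% of all genes after median-of-ratios scaling and 20.6% after quantile normalization. With 1 library left out it was 1 to 14, and the 14 came without knockdown 0 h library 3 (46.9% of all genes). The change of Snai1 at 0 h was -0.51 (adjusted p = 0.191) after median-of-ratios scaling and -0.93 to -0.64 with 1 library left out, and at 36 h -1.64 to -1.42. The cause of these changes was not tested.

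The replicate numbers are shared between groups, and the labels state no pairing. Over all genes, same-numbered libraries correlated at -0.20 to 0.13 in their deviations from the group means, and differently numbered ones at -0.24 to 0.23. With 3 libraries a group this cannot decide whether the numbers mark a pairing or a shared batch. With the replicate number as a block, 4 members were called higher at 0 h (1.22% of all genes) and 0 at 36 h (0.0139%). With the block and median-of-ratios scaling 10 were called higher at 0 h (4.0%) and 1 at 36 h (0.111%). TPM gives no depth, so the precision of members below 1 TPM could not be stated.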
